A study of Homo sapiens with 24 samples.

Results

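LRRN3 and LPAR6 are protein-coding genes that lie inside an intron of another gene on the opposite strand, LRRN3 in IMMP2L on chromosome 7 and LPAR6 in RB1 on chromosome 13. They were chosen because they were nearly without reads in control cells and were read in every library after SFPQ knockdown. With their host genes they make 4 of the 60605 genes counted. The nested class they belong to, protein-coding genes whose whole span sits between exons of a protein-coding gene on the other strand, has 367 members in the deposited gene models.

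Poly(A)-selected RNA was sequenced from SBC-3, an established human cell line labelled small cell lung cancer, 72 h after reverse transfection of the reagents at 10 nM. The study is concerned with SFPQ and NONO, RNA-binding proteins of nuclear bodies called paraspeckles, and with NEAT1, their noncoding RNA scaffold. Each of 8 groups had 3 libraries. Cells labelled WT received a control small interfering RNA (siCtrl) or a control antisense oligonucleotide (ASO-Ctrl), SFPQ knockdown used siSFPQ-2 or siSFPQ-3, NONO knockdown used siNONO-3 or siNONO-4, and NEAT1 knockdown used ASO-NEAT1-1047 or ASO-NEAT1-1473. All groups are transient transfections of 1 cell line, and the labels do not say whether replicates are separate cultures. The p-values thus reflect the variation among these libraries, which may be technical.

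LRRN3 encodes a neuronal membrane protein with extracellular leucine-rich repeats, a family known for roles in cell adhesion and nervous system development, and its RNA is also known from naive T cells. LPAR6 encodes a G protein-coupled receptor for lysophosphatidic acid (LPA), a lipid signal, and is known for its role in hair growth. IMMP2L is a subunit of the peptidase of the mitochondrial inner membrane that trims proteins such as cytochrome c1. RB1 is the retinoblastoma tumour suppressor, which restrains E2F transcription factors until cyclin-dependent kinases inactivate it. Loss of RB1 is a hallmark of small cell lung cancer.

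The gene models place both nested genes clear of their hosts' exons (hg38, coordinates of the deposited files). LRRN3 (ENSG00000173114) spans 34.449 kb, from 111091006 to 111125454 on the plus strand of chromosome 7. IMMP2L (ENSG00000184903) spans 899.874 kb, from 110662644 to 111562517 on the minus strand. LRRN3 lies in a stretch of 427.005 kb without any IMMP2L exon, 471.511 kb downstream of the outermost start of IMMP2L and at least 127440 bp from the nearest IMMP2L exon. In the GENCODE transcript of IMMP2L with the longest coding sequence, which has 7 exons, LRRN3 lies in intron 4. That intron is longer than the stretch, at 523.672 kb, because the stretch is bounded by exons of all deposited models.

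LPAR6 (ENSG00000139679) spans 55.138 kb, from 48389567 to 48444704 on the minus strand of chromosome 13. RB1 (ENSG00000139687) spans 295.693 kb on the plus strand, from 48303744 to 48599436. LPAR6 fills most of a stretch of 63.384 kb without RB1 exons, and its outermost start is 123 bp from the nearest RB1 exon. In the corresponding GENCODE transcript of RB1, which has 27 exons, LPAR6 lies in intron 17, of 71.549 kb. The RB1 exon 123 bp from LPAR6 falls inside that intron and is not an exon of this transcript. The exons of nested gene and host overlapped by 0 bp in both pairs, as the map of exons shows.

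**Figure D1:**
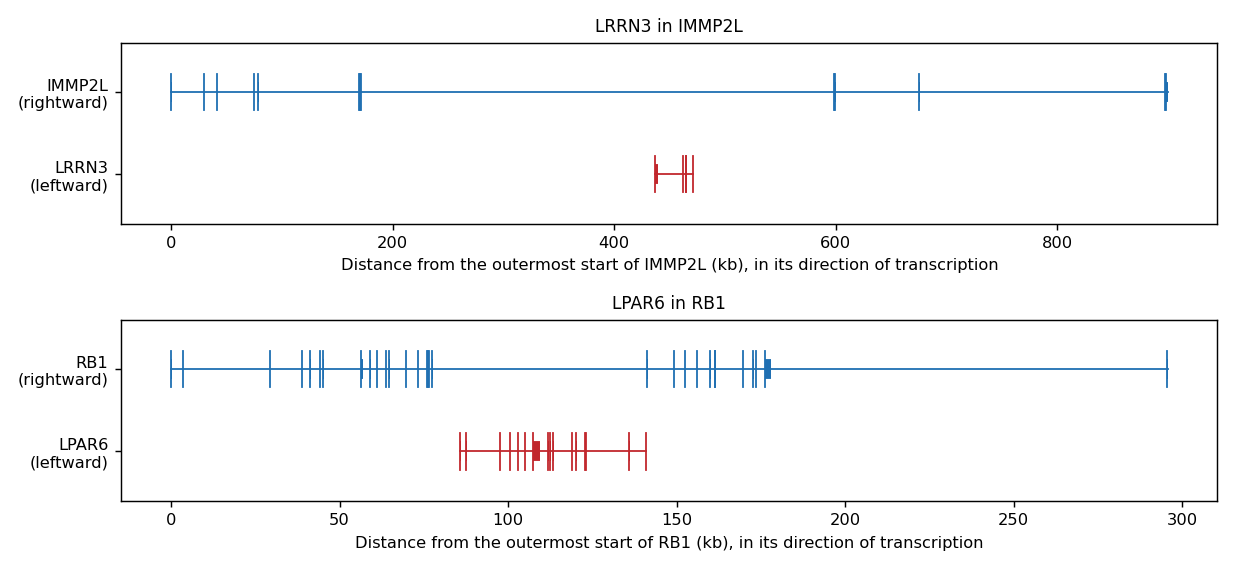
Exons of each nested gene (red) and its host (blue), in kb from the outermost start of the host in the host's direction of transcription; vertical ticks and boxes are exons and the line is the span. LRRN3 begins 471.511 kb and LPAR6 140.96 kb into its host, both are read leftward, and no red exon meets a blue exon.

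Whether the counts tell the strands apart was checked on the counts themselves. Of 833 genes whose exons are wholly covered by exons of genes on the other strand, 515 had reads, 33613 in all. Of 1304 genes wholly covered by exons of genes on their own strand, 0 had a read. Reads were therefore kept apart by strand in this counting, and, with 0 bp of shared exon, a read of one gene of a pair was not open to the other.

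The sequences just upstream of the start sites are shown because those of LRRN3 and LPAR6 differ from that of IMMP2L in their CG content. They come from RefSeq (GRCh38.p14), which matched all 4 genes. The entry for RB1 starts 172706 bp inside the deposited gene and is not shown, and that for LPAR6 starts 31591 bp inside the outermost deposited start. Only bases outside the deposited exons are printed, 5′ to 3′ on the gene's strand, with CG dinucleotides, the sites of DNA methylation, in capitals: chr7:111090877-111091005 on the plus strand for LRRN3, chr13:48413114-48413363 on the minus strand for LPAR6 and chr7:111562518-111562742 on the minus strand for IMMP2L.
LRRN3: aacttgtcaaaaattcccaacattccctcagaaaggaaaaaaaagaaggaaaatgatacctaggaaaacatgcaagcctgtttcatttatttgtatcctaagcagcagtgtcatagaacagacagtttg
LPAR6: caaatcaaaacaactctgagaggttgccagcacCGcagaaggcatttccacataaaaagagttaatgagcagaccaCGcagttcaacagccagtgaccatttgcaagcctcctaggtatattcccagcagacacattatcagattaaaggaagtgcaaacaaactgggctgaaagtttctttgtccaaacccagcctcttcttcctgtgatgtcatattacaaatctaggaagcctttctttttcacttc
IMMP2L: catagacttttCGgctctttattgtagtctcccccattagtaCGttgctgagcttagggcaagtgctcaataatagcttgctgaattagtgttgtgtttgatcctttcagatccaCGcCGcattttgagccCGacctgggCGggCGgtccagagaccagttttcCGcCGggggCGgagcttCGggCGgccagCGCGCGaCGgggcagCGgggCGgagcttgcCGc

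The LRRN3 stretch held 0 CG dinucleotides in 129 bases and the LPAR6 stretch held 2 in 250 bases, against 19 in 225 bases for IMMP2L. Over the full windows, from 250 bases before to 50 after the RefSeq start, LRRN3 had 5 CG dinucleotides and a GC content of 46.0%. LPAR6 had 3 and 43.33%. IMMP2L had 31 and 65.0%. The median of 35116 such windows was 14, and 29.64% of them had fewer than LRRN3, 18.2% fewer than LPAR6 and 79.35% fewer than IMMP2L.

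Of 5 motifs searched on both strands, GGGCGG, the GC box, was found 7 times in the IMMP2L window and in 44.95% of all windows. It was not found in the LRRN3 or the LPAR6 window. CCAAT was found once in the LRRN3 window and in 34.61% of all windows. TATAAA (11.53% of all windows), TGANTCA (7.71%) and TGACGTCA (1.85%) were not found in any of the 3 windows; TGACGTCA does not contain TGANTCA, and the motifs were counted separately where they overlap. A match describes these letters only.

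**Figure D2:**
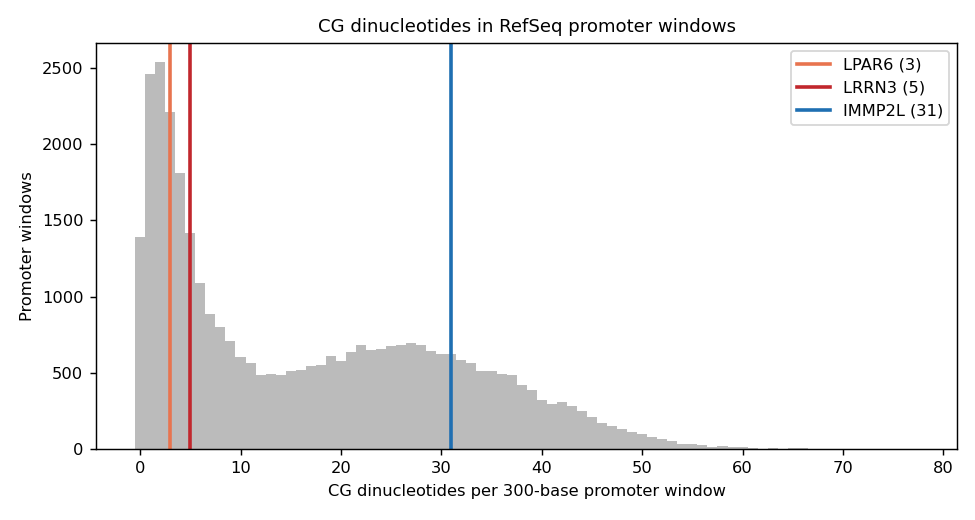
Number of CG dinucleotides per 300-base RefSeq promoter window (x axis) against the number of windows (y axis), with vertical lines at the values of LPAR6 (3), LRRN3 (5) and IMMP2L (31). The nested genes sit on the left peak of the distribution and IMMP2L on its broad right shoulder.

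Libraries held between 4243196 and 14886353 counted reads, and all 6 siSFPQ libraries lay under the shallowest siCtrl library at 9999025. Mitochondrially encoded genes took 9.588% to 11.558% of the counts in the siSFPQ libraries and 7.628% to 9.066% in siCtrl. As a check of the labels, SFPQ RNA in siCtrl stood at 1223 ± 40.2 CPM (reads relative to the TMM-scaled library total; SD, n = 3), siSFPQ-2 left 207.6 ± 47.3 and siSFPQ-3 left 222.5 ± 27.3. NONO RNA stood at 399.1 ± 14.9 CPM in siCtrl and at 69.23 ± 9.30 and 70.07 ± 5.06 under siNONO-3 and siNONO-4. NEAT1 RNA stood at 215.8, 288.9 and 386.8 CPM in ASO-Ctrl, at 243.8, 331.2 and 317.4 in ASO-NEAT1-1047 and at 181.2, 204.5 and 232.0 in ASO-NEAT1-1473. It was lower in each same-numbered pair for ASO-NEAT1-1473 and in 1 of 3 for ASO-NEAT1-1047, and the reagents together were not called (log2 fold change -0.26, 95% interval -0.69 to 0.17, edgeR adjusted p = 1). Of 12 markers of small cell lung cancer, INSM1 had no reads in any group, and CHGA, NCAM1 and UCHL1 were at 0.366 CPM or less in every group. SOX2 and YAP1 stood at 432 and 407 CPM in siCtrl, SYP at 17.2 and NEUROD1 at 4.62, so several neuroendocrine markers that define most small cell lung cancers were absent from these cells.

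LRRN3 had 0, 2 and 0 reads in the siCtrl libraries. With siSFPQ-2 it had 168, 76 and 70 reads, or 21.5, 18.8 and 7.34 CPM. With siSFPQ-3 it had 454, 511 and 297 reads, or 54.2, 62.7 and 35.8 CPM. Every siSFPQ library thus lay far above every other library, and the 3 siSFPQ-3 libraries all lay above the 3 siSFPQ-2 libraries.

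In the remaining 15 libraries LRRN3 had 1 read in siNONO-4 replicate 3, 1 read in ASO-Ctrl replicate 2 and none elsewhere. Over all 18 libraries without an SFPQ reagent it had 4 reads in all, and 15 of the libraries had none. The highest of these libraries reached 0.204 CPM and the lowest siSFPQ library 7.34 CPM. In bulk RNA, more cells with the transcript and more transcript per cell cannot be told apart.

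LPAR6 had 0, 0 and 2 reads in siCtrl. With siSFPQ-2 it had 108, 65 and 135 reads, or 13.8, 16.1 and 14.2 CPM. With siSFPQ-3 it had 136, 169 and 121 reads, or 16.2, 20.7 and 14.6 CPM. The reagents overlapped here, unlike for LRRN3.

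Outside SFPQ knockdown LPAR6 was read a little more often than LRRN3. It had 1, 3 and 0 reads in siNONO-3, 0, 1 and 4 in siNONO-4, and 0, 2 and 1 in ASO-Ctrl. In ASO-NEAT1-1047 it had 0, 1 and 1 reads and in ASO-NEAT1-1473 it had 0, 1 and 0. That makes 17 reads over 18 libraries, of which 8 had none, and a highest value of 0.410 CPM against a lowest siSFPQ value of 13.8 CPM.

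Both nested genes were chosen on this contrast, so their change is given as a description without a test. Scaled for library size, LRRN3 reads were 592 times and LPAR6 reads 276 times those of siCtrl, with counting intervals of 164 to 4890 and 76 to 2280. The intervals are wide because each ratio rests on 2 control reads. By fitted log2 fold change LRRN3 ranked 3 and LPAR6 ranked 11 from the highest of 15869 genes tested, where 34.7% of genes were called higher by edgeR at an adjusted p under 0.05 and libraries lay wholly above siCtrl for 28.4%.

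**Figure D3:**
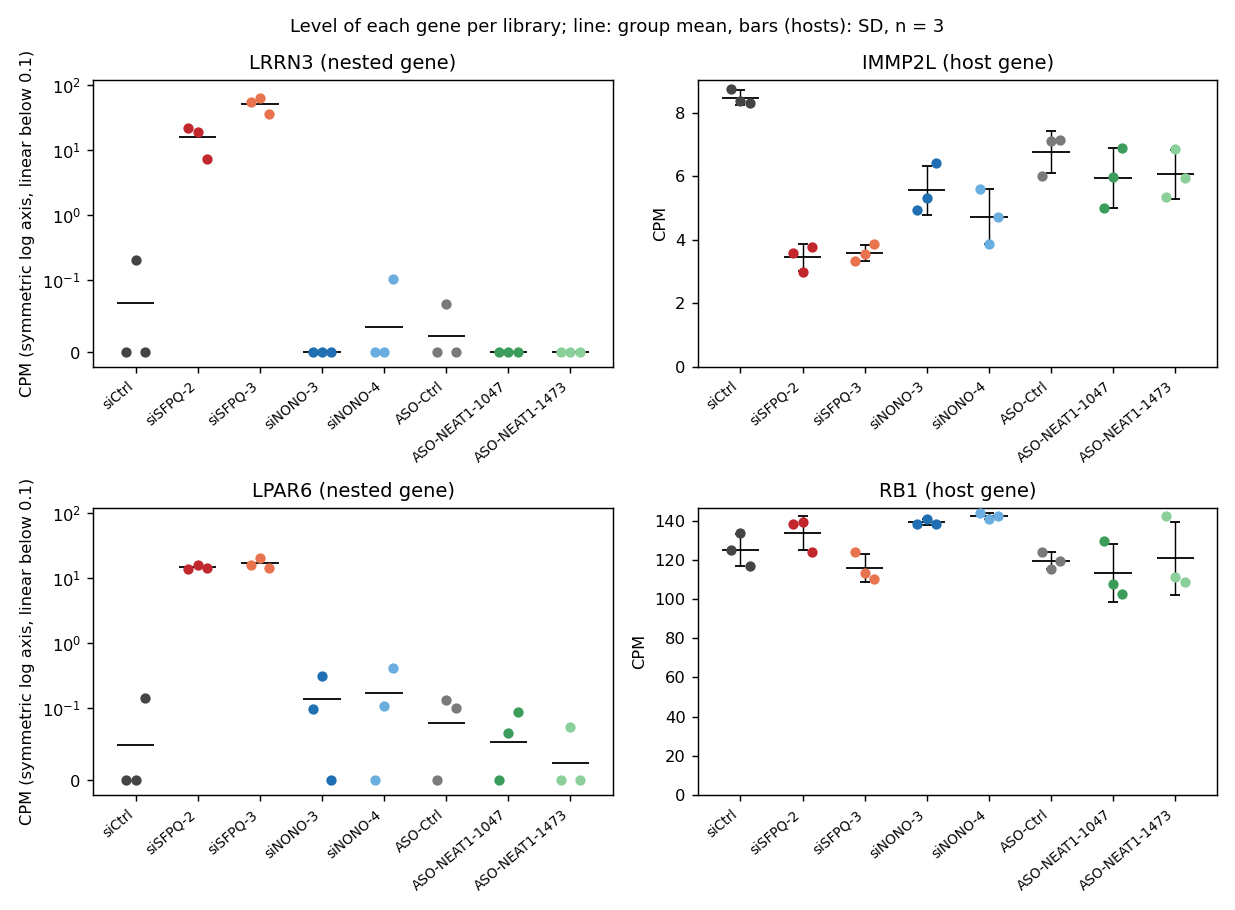
CPM of the 4 genes (y axes) in each library of the 8 groups (x axes); points are libraries, lines are group means and bars on the host panels are SD (n = 3). The nested genes are on a symmetric log axis that is linear below 0.1 CPM and stand above 7 CPM in the 6 siSFPQ libraries alone, whereas IMMP2L is highest in siCtrl and RB1 keeps between 102.4 and 144.2 CPM throughout.

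The hosts did not share a pattern with their nested genes or with each other. IMMP2L stood at 8.76, 8.38 and 8.31 CPM in siCtrl, at 3.58, 2.98 and 3.78 with siSFPQ-2 and at 3.34, 3.56 and 3.85 with siSFPQ-3. All 6 siSFPQ libraries lay under all 3 controls, with a log2 fold change of -1.25 (SE 0.15) over 165 reads against 294. RB1 stood at 124.9, 133.5 and 117.1 CPM in siCtrl, at 138.1, 139.6 and 123.8 with siSFPQ-2 and at 123.8, 113.4 and 110.2 with siSFPQ-3. Its libraries overlapped, with a log2 fold change of -0.01 (SE 0.08, 95% interval -0.17 to 0.16). The switched-on nested gene was thus accompanied by a lower host in one pair and by a host that overlapped its control libraries in the other. In this contrast 35.8% of all genes were called lower, and libraries lay wholly under the controls for 28.1%.

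IMMP2L is a very long gene, and its lower level can be set beside others of its kind. The 539 tested genes spanning over 300 kb had a median log2 fold change of -0.94 after SFPQ knockdown, and 229 of them (42.49%) stood lower than IMMP2L at -1.25. After NONO knockdown their median was -0.20, and 89 of them stood lower than IMMP2L at -0.72. The deposited RB1 span of 295.693 kb is under 300 kb, so RB1 was not set beside these genes. That span includes 1 exon far from the rest: the others end at 178.146 kb and the last begins at 295.558 kb.

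The siSFPQ reagents differed in the level of LRRN3, a difference that the choice of the gene did not fix. LRRN3 was 3.28-fold higher with siSFPQ-3 (50.9 ± 13.8 CPM) than with siSFPQ-2 (15.9 ± 7.52), a log2 difference of 1.71 (SE 0.33, edgeR adjusted p = 0.00285), with all 3 libraries above all 3. By edgeR, 8.61% of all genes were called higher with siSFPQ-3 and 6.06% lower, and libraries lay wholly above for 15.9%. LPAR6 stood at 17.2 ± 3.19 and 14.7 ± 1.24 CPM, a log2 difference of 0.23 (95% interval -0.28 to 0.75, edgeR adjusted p = 0.603). IMMP2L differed by 0.03 (-0.42 to 0.47, edgeR adjusted p = 0.982). RB1 differed by -0.21 (-0.40 to -0.01, edgeR adjusted p = 0.154), and its libraries overlapped.

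SFPQ RNA itself did not separate the reagents (log2 difference 0.11, 95% interval -0.12 to 0.33, edgeR adjusted p = 0.588). Replicate 3 held both the least SFPQ and the least LRRN3 RNA of each siSFPQ group, 153.3 and 7.34 CPM with siSFPQ-2 and 191.1 and 35.8 CPM with siSFPQ-3. The ratio of LRRN3 to LPAR6 per kb of exon was 1.75, 1.31 and 0.582 with siSFPQ-2 and 3.75, 3.39 and 2.76 with siSFPQ-3. On the log2 scale the ratio differed by 1.57 between the reagents, with no overlap of libraries (exact 2-sided permutation p = 0.1, the smallest that 20 splits allow).

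Markers of other cell types were read beside the nested genes, since LRRN3 is known from naive T cells. The summed level of 10 T cell markers was 0.437 to 0.613 CPM in siCtrl, 29.02 to 40.2 with siSFPQ-2 and 38.9 to 45.1 with siSFPQ-3. LCK, a T cell kinase, and IL7R, the receptor of interleukin 7, carried this sum, with 8.70 and 23.1 CPM under siSFPQ-2 and 15.7 and 25.1 CPM under siSFPQ-3. CD2 had no reads in any group, and CD3D, CD3E, CD3G, CD4, CD28 and PTPRC were at 0.19 CPM or less in every group. CD8A was highest with siSFPQ-2, at 0.528 CPM.

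The summed endothelial markers ran from 0.219 to 0.307 CPM in siCtrl and from 1.15 to 2.46 in the siSFPQ libraries. Those of macrophages ran from 0 to 0.536 and from 0.723 to 2.05 CPM, with CD163 at 0 in every group. Fibroblast markers ran from 13.4 to 21.5 CPM in siCtrl and from 13.01 to 24.03 with siSFPQ, with DCN at 0 in every group. Epithelial markers went from 64.8 to 74.6 CPM in siCtrl to between 22.6 and 39.9 with siSFPQ, where TP63 went from 70.5 CPM to 10.0 and 3.02 and KRT20 went from 0.136 to 21.9 and 26.2. Apart from the levels given, the part of depth, mitochondrial share and these markers in the values of the 4 genes was not tested.

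After NONO knockdown the nested genes stayed near 0. LRRN3 had 1 read in 6 siNONO libraries and 2 in 3 siCtrl libraries, at or under the floor of 3 counts in both groups, so no fold is given. LPAR6 had 9 reads against 2, a scaled ratio of 2.61 with a counting interval of 0.54 to 24.8 (edgeR adjusted p = 0.442). When each library was left out in turn the fitted log2 fold change ran from 0.46 to 3.74, the latter without siCtrl replicate 3, which holds both control reads, and it was called in none of these fits. A rise like that after SFPQ knockdown lies far outside this interval. These libraries are compared with the same siCtrl libraries in which the nested genes were found low.

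IMMP2L was lower after NONO knockdown as well. It stood at 4.94, 5.31 and 6.43 CPM with siNONO-3 and at 5.60, 3.86 and 4.72 with siNONO-4, all under the lowest siCtrl library at 8.31. The log2 fold change was -0.72 (SE 0.14, 95% interval -1.02 to -0.43, edgeR adjusted p = 0.000772). In this contrast 17.4% of genes were called by edgeR, 9.96% lower, and libraries lay wholly under siCtrl for 7.69%. Against ASO-Ctrl, a reference chosen after seeing the data, the log2 fold change was -0.39 and was not called (edgeR adjusted p = 0.0743), since IMMP2L stood lower in that control than in siCtrl.

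RB1 stood at 138.5, 140.9 and 138.2 CPM with siNONO-3 and at 144.2, 141.1 and 142.4 with siNONO-4, each above the highest siCtrl library at 133.5. Libraries lay wholly above siCtrl for 7.98% of genes. The log2 fold change was 0.17 (SE 0.08, 95% interval 0.01 to 0.34) and was not called (edgeR adjusted p = 0.149). With the replicate number as a block, the value was 0.17 with an edgeR adjusted p = 0.0433, and against ASO-Ctrl it was 0.24 with an edgeR adjusted p = 0.049. The siNONO reagents did not differ beyond their error in IMMP2L (log2 difference -0.23, 95% interval -0.60 to 0.14, edgeR adjusted p = 0.483) or in RB1 (0.03, -0.15 to 0.22, edgeR adjusted p = 0.868). In that comparison 10.0% of all genes were called, and libraries lay wholly above for 14.7%, RB1 among them.

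In the oligonucleotide arm, which the choice of genes did not use, no member was called. LRRN3 had 0 reads in the 6 libraries labelled ASO-NEAT1 and 1 in ASO-Ctrl, and LPAR6 had 3 and 3, so no fold is given for either. IMMP2L stood at 5.996, 7.13 and 7.16 CPM in ASO-Ctrl, at 4.99, 5.98 and 6.89 in ASO-NEAT1-1047 and at 5.36, 6.87 and 5.96 in ASO-NEAT1-1473. The change of IMMP2L was -0.17 on the log2 scale (95% interval -0.46 to 0.13, edgeR adjusted p = 1). It was lower in 6 of 6 same-numbered pairs, and with the replicate number as a block the change was -0.17 (SE 0.14, edgeR adjusted p = 1). RB1 stood at 123.9, 115.3 and 119.4 CPM in ASO-Ctrl, at 129.9, 107.6 and 102.4 in ASO-NEAT1-1047 and at 142.4, 111.4 and 108.6 in ASO-NEAT1-1473, with a log2 fold change of -0.03 (-0.20 to 0.13, edgeR adjusted p = 1). Replicate 1 held the highest RB1 and the lowest IMMP2L of each of the 3 groups. Of 15869 genes, 0 (0.0%) were called here by edgeR, with 353 at an unadjusted p under 0.05, and 0 by DESeq2.

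The controls of the arms were compared too. IMMP2L was lower in all 3 ASO-Ctrl libraries than in all 3 siCtrl libraries, with a log2 difference of -0.33 (95% interval -0.66 to 0.01, edgeR adjusted p = 0.65). Libraries lay wholly under siCtrl for 7.68% of genes, and 0.454% were called. RB1 differed by -0.07 (-0.26 to 0.12, edgeR adjusted p = 0.941).

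Over the 8 groups the order of mean levels of LRRN3 was siSFPQ-3, then siSFPQ-2, then all others near 0, whose ranges overlapped. LPAR6 was high in both siSFPQ groups, which did not separate, and it stood without overlap above siNONO-4, the next in the order, after which neighbours overlapped. IMMP2L ran from siCtrl (8.48 ± 0.241 CPM) through ASO-Ctrl (6.76 ± 0.662), ASO-NEAT1-1473 (6.06 ± 0.761), ASO-NEAT1-1047 (5.95 ± 0.947), siNONO-3 (5.56 ± 0.780) and siNONO-4 (4.73 ± 0.871) to siSFPQ-3 (3.58 ± 0.258) and siSFPQ-2 (3.44 ± 0.418). Only siCtrl against ASO-Ctrl and siNONO-4 against siSFPQ-3 were neighbours without overlap. RB1 ran from 142.6 ± 1.56 CPM in siNONO-4 to 113.3 ± 14.7 in ASO-NEAT1-1047, and apart from the siNONO groups, which did not overlap, its neighbours differed by less than their SD.

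Per kb of exon, the nested genes reached different positions relative to their hosts. In each siSFPQ library LRRN3 exceeded IMMP2L. The ratio was 6.06, 6.27 and 1.98 with siSFPQ-2 and 16.3, 17.8 and 9.38 with siSFPQ-3. LPAR6 stayed under RB1 in every library, with ratios of 0.149, 0.172 and 0.170 with siSFPQ-2 and 0.194, 0.271 and 0.196 with siSFPQ-3. The level per kb was 13.1 ± 3.55 CPM for LRRN3 and 0.903 ± 0.065 for IMMP2L with siSFPQ-3, and 3.95 ± 0.734 for LPAR6 and 18.0 ± 1.11 for RB1.

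On the log2 scale, with 0.5 reads added to each count, LRRN3 over IMMP2L went from -6.80 ± 1.56 in siCtrl to 2.08 ± 0.947 and 3.803 ± 0.501. LPAR6 over RB1 went from -10.14 ± 1.20 to -2.62 ± 0.117 and -2.20 ± 0.273 (SD, n = 3). Outside SFPQ knockdown LRRN3 had no read in 15 of 18 libraries and LPAR6 in 8 of 18, and the others held few, so the ratio there is set largely by the host and the added 0.5. The differences were 0.42 (LRRN3 over IMMP2L) and 0.78 (LPAR6 over RB1) after NONO knockdown, and -0.39 and -0.51 in the libraries labelled ASO-NEAT1. Exact 2-sided permutation tests over 84 splits, which did not use the replicate numbers, gave p = 0.595, 0.44, 0.214 and 0.452. Each was adjusted to 0.595 over these 4 tests.

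**Figure D4:**
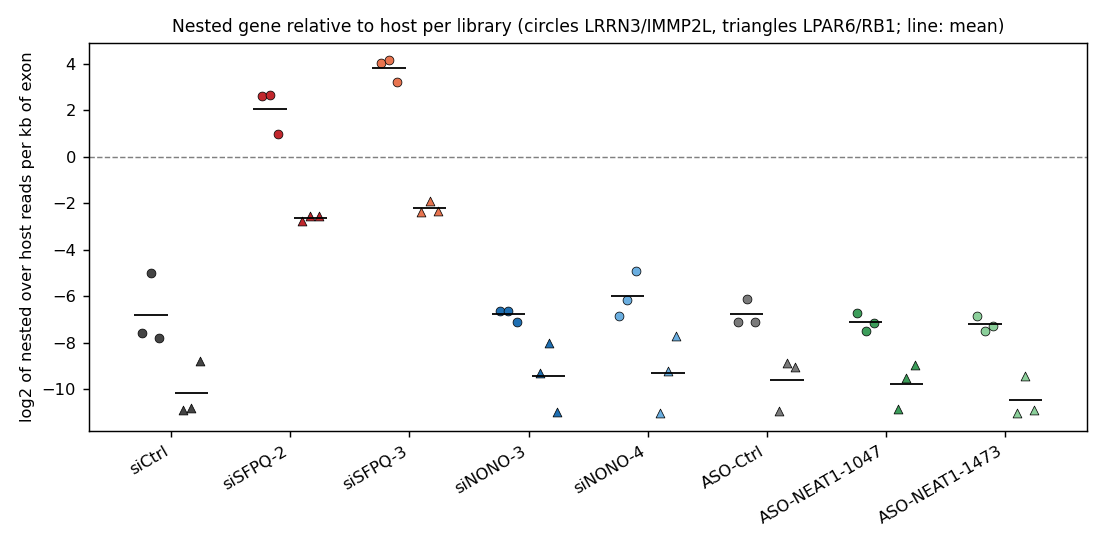
Log2 ratio of nested over host reads per kb of exon (y axis) in each library, by group (x axis); circles are LRRN3/IMMP2L, triangles LPAR6/RB1, short lines the group means, and the dashed line marks equal levels per kb. LRRN3 lies above its host in the 6 siSFPQ libraries, while LPAR6 stays under RB1 with log2 ratios between -2.75 and -1.88 there.

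The expression rule of the pair was applied to the whole nested class: under 0.5 CPM on average in siCtrl and over 1 CPM with both siSFPQ reagents. Of 244 nested genes with low control levels, 5 (2.05%) met it. Of 7410 other protein-coding genes with low control levels, 269 (3.63%) met it, a higher share than in the nested class, with no test made of the difference. The other 3 were FGF7, a growth factor inside FAM227B, ABHD12B, a putative hydrolase inside PYGL, and LYG1, a lysozyme-like gene. FGF7 had 0 reads in siCtrl and 1.38 and 1.57 CPM with the reagents, while its host FAM227B went from 2.22 to 1.39 and 1.21 CPM. ABHD12B went from 0.0341 to 1.90 and 1.29 CPM, and its host PYGL, the liver glycogen phosphorylase, from 71.3 to 112 and 113 CPM. LRRN3 and LPAR6 reached levels several times those of the other 3. Both are counted among the 5 and were chosen for their rise, so this is a description only.

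Of the other nested genes, 123 of 365 passed the filter on low counts, of which 43 were called higher and 43 lower after SFPQ knockdown by edgeR, against 34.7% and 35.8% of all genes. FGF7, ABHD12B, LYG1 and INSYN2A passed only through the siSFPQ libraries, which favours a call, and all 4 were called. Of all genes tested, 1056 passed in this way, and 920 of these were called. The 123 genes had a median log2 fold change of -0.06, against -0.02 for all genes tested. Of the 123, 119 passed without the siSFPQ libraries (39 higher, 43 lower), with a median of -0.08. Of all genes tested, 14813 did so (4579 higher, 5678 lower), with a median of -0.09. Of their hosts, 163 of 302 passed, with 47 higher and 83 lower and a median of -0.31. Among these hosts 6 passed only through the siSFPQ libraries, of which 4 were called. The other 157 (43 higher, 83 lower) had a median of -0.36.

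The surroundings of the host genes also held genes that rose, all of them near RB1 except DOCK4. Of 39 genes inside the hosts or within 500 kb of them, 11 passed the filter, of which 7 rose after SFPQ knockdown and 0 fell by edgeR, with a median log2 fold change of 0.60, beside 34.7% of all genes higher and 35.8% lower. The only tested neighbour of IMMP2L was DOCK4, and the rest of the 11 lay in or near RB1, so these values mostly describe 1 locus. DOCK4, an activator of small GTPases, stood at 7.25 CPM in siCtrl and 17.4 and 16.1 with the siSFPQ reagents (log2 fold change 1.20, SE 0.26, edgeR adjusted p = 0.000233). Next to RB1 was ITM2B, a membrane protein gene, which rose from 163 to 311 and 276 CPM (0.85, SE 0.12, edgeR adjusted p = 1.53e-06). On the other side of RB1 the nearest tested gene was PSME2P2, a processed pseudogene 171.692 kb away. It was not called (0.16, SE 0.30, edgeR adjusted p = 0.634). FNDC3A, farther away at 376.476 kb, rose by 0.60 (SE 0.07).

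Other genes inside the RB1 span did not follow LPAR6, and no other gene inside IMMP2L passed the filter. RCBTB2, on the other strand, lies inside the deposited span of RB1 only through the distant last RB1 exon. The log2 fold change of RCBTB2 was 0.01 (edgeR adjusted p = 0.959). PCNPP5, a processed pseudogene in RB1 whose reads are uncertain, had 260 reads over 24 libraries and a log2 fold change of -0.39 (edgeR adjusted p = 0.373). PPP1R26P1, also a pseudogene in RB1, had 1 read in all, and LINC01077 and LINC00462 had 0. After NONO knockdown 3 neighbours fell and 1 rose by edgeR, beside 9.96% and 7.47% of all genes. DOCK4 fell by 0.78 (SE 0.27), RCBTB2 by 0.54 (SE 0.18) and FNDC3A by 0.35 (SE 0.07). LINC00562, a noncoding RNA, rose by 0.86 (SE 0.30).

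Receptors related to LPAR6 were mostly silent in these cells, as 8 of 22 passed the filter. After SFPQ knockdown 3 of them rose and 1 fell by edgeR, beside 34.7% and 35.8% of all genes. CYSLTR1, a receptor of cysteinyl leukotrienes, passed the filter only through the siSFPQ libraries, and the other 7 (2 higher, 1 lower) had a median log2 fold change of 0.34. The 14813 of all genes that passed without those libraries (4579 higher, 5678 lower) had a median of -0.09. CYSLTR1 went from 0.196 to 4.87 and 4.81 CPM. F2R, the thrombin receptor, rose from 6.99 to 17.7 and 19.6 CPM (log2 fold change 1.41, SE 0.13). GPR174, a lysophosphatidylserine receptor, fell from 824 to 519 and 301 CPM (-1.06, SE 0.08). Among the LPA receptors proper, LPAR2 and LPAR4 passed the filter and were not called, at 0.61 (SE 0.35) and 0.06 (SE 0.31). After NONO knockdown 2 receptors rose and 0 fell by edgeR, beside 7.47% and 9.96% of all genes. Among them LPAR4 rose by 1.06 (SE 0.28). With the replicate block 4 receptors were called, beside 4262 of 15869 genes.

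The enzymes that make and break down LPA went both ways. Of 12 tested, 6 rose and 5 fell after SFPQ knockdown by edgeR, beside 34.7% and 35.8% of all genes. LIPH, a phospholipase that makes LPA, passed the filter only through the siSFPQ libraries, and the other 11 (5 higher, 5 lower) had a median log2 fold change of 0.12. The 14813 of all genes that passed without those libraries (4579 higher, 5678 lower) had a median of -0.09. LIPH went from 0.098 to 4.86 and 4.11 CPM, and PLA1A, a phosphatidylserine phospholipase, from 1.05 to 8.39 and 14.9 CPM. DGKA, a diacylglycerol kinase, rose by 1.26 (SE 0.16). ENPP2, the secreted LPA-producing enzyme autotaxin, fell from 185 to 71.1 and 52.3 CPM (-1.60, SE 0.25), PLPP3, a lipid phosphatase that degrades LPA, fell by 1.71 (SE 0.50), and the phospholipase PLA2G4A by 1.48 (SE 0.06). After NONO knockdown 2 rose and 0 fell by edgeR, beside 7.47% and 9.96% of all genes. PLA1A rose by 1.14 (SE 0.38) and DGKA by 0.89 (SE 0.16). With the block 5 were called, beside 4262 of 15869 genes.

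Of 39 leucine-rich repeat membrane proteins related to LRRN3, 19 passed the filter. After SFPQ knockdown 10 rose and 6 fell by edgeR, beside 34.7% and 35.8% of all genes. SLITRK6, SLITRK3 and LRRTM4 passed only through the siSFPQ libraries, and the other 16 (7 higher, 6 lower) had a median log2 fold change of -0.03. The 14813 of all genes that passed without those libraries (4579 higher, 5678 lower) had a median of -0.09. SLITRK6, a neurite-controlling protein, rose from 0.758 to 55.0 and 25.4 CPM (log2 fold change 5.62, SE 0.34), and LRRC4, a synaptic adhesion protein, from 3.00 to 19.55 and 28.95 CPM (3.01, SE 0.22). LRRTM4 went from 0.147 to 2.76 and 0.805 CPM. LRFN1, LRTM2 and FLRT1 fell by 1.69 (SE 0.24), 1.68 (SE 0.35) and 1.12 (SE 0.47). SLITRK6 was lower with siSFPQ-3 than with siSFPQ-2 by 1.12 (SE 0.24, edgeR adjusted p = 0.00264), the direction opposite to LRRN3. After NONO knockdown 0 rose and 3 fell by edgeR, beside 7.47% and 9.96% of all genes. AMIGO2 fell by 1.99 (SE 0.37), LRIG1 by 0.93 (SE 0.20) and FLRT2 by 0.76 (SE 0.21). AMIGO2 and LRIG1 had risen after SFPQ knockdown. With the block 6 were called after NONO knockdown, beside 4262 of 15869 genes.

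Of 25 tested genes of the RB1 pathway, 6 rose and 12 fell after SFPQ knockdown by edgeR, beside 34.7% and 35.8% of all genes, with a median log2 fold change of -0.19. The kinase inhibitors CDKN2B and CDKN1A rose by 2.80 (SE 0.21) and 1.69 (SE 0.14), and TFDP2, a partner of E2F factors, by 1.70 (SE 0.11). CCNE1 and CCNE2, the E-type cyclins of the G1 to S transition, fell by 1.89 (SE 0.11) and 1.35 (SE 0.18), and the inhibitor CDKN2C by 1.52 (SE 0.13). Averaged over the reagents, the RB1 relatives moved apart, RBL2 higher by 0.48 (SE 0.07) and RBL1 lower by 0.32 (SE 0.09). RBL2 went from 105.3 to 151.2 and 142.7 CPM. RBL1 stood at 42.63 CPM in siCtrl, 27.46 under siSFPQ-2 and 43.26 under siSFPQ-3, so its mean was lower under siSFPQ-2 only. The level of RBL1 was 0.68 higher on the log2 scale under siSFPQ-3 than under siSFPQ-2 (SE 0.11, edgeR adjusted p = 0.000127). After NONO knockdown 1 rose and 5 fell by edgeR, beside 7.47% and 9.96% of all genes. CDKN1A rose by 1.83 (SE 0.14). Those that fell included CDKN1B by 0.46 (SE 0.07), CDKN2C by 0.38 (SE 0.12) and CDK6 by 0.34 (SE 0.08). With the block 10 were called, beside 4262 of 15869 genes.

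Of 17 other mitochondrial proteases and their substrates, 12 fell and 1 rose after SFPQ knockdown by edgeR, beside 35.8% and 34.7% of all genes, with a median log2 fold change of -0.34. LONP1, the matrix protease, fell by 1.60 (SE 0.14), CYC1, the cytochrome c1 that the IMMP2L peptidase trims, from 48.9 to 15.3 and 19.3 CPM (-1.51, SE 0.09), and MIPEP by 1.37 (SE 0.12). CLPX rose by 0.38 (SE 0.06). IMMP1L, the other subunit of the peptidase, stood at 0.07 (SE 0.12, edgeR adjusted p = 0.62). After NONO knockdown 3 rose and 1 fell by edgeR, beside 7.47% and 9.96% of all genes. CYC1 rose by 0.31 (SE 0.09), PMPCA by 0.25 (SE 0.07) and XPNPEP3 by 0.25 (SE 0.08), and MIPEP fell by 0.33 (SE 0.12). With the block 7 were called, beside 4262 of 15869 genes. In the libraries labelled ASO-NEAT1, 0 genes of any of these lists were called by edgeR.

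**Figure D5:**
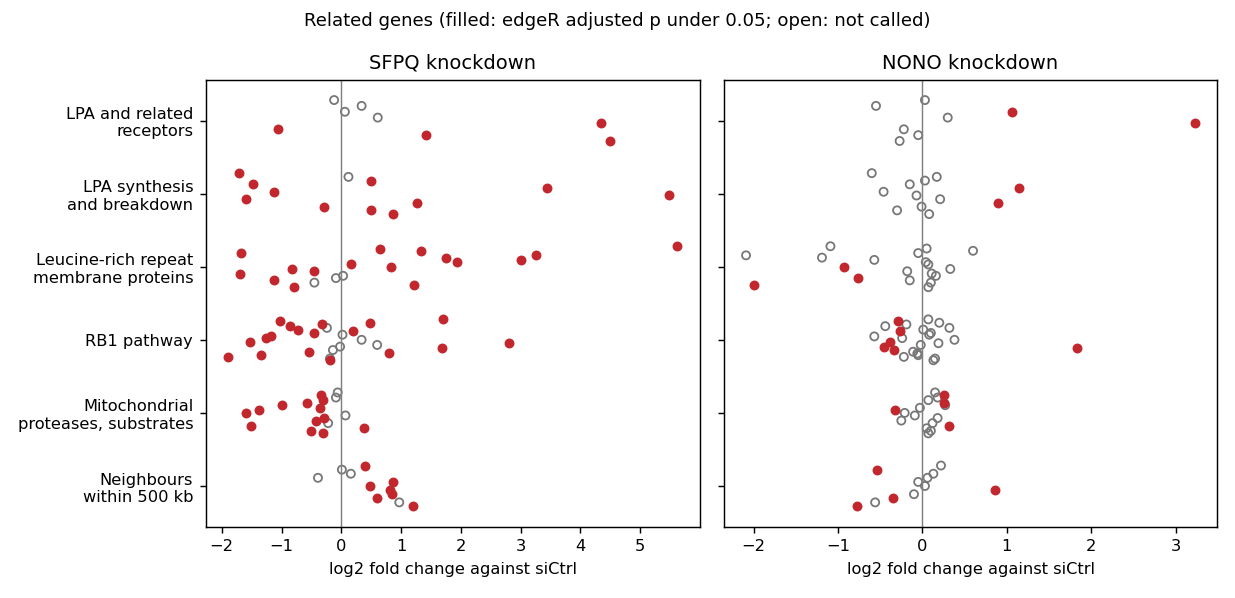
Log2 fold change against siCtrl (x axis) of every tested gene of 6 lists (y axis) after SFPQ (left) and NONO (right) knockdown; filled points have an edgeR adjusted p under 0.05, and open points are not called. After SFPQ knockdown neighbours have 7 filled points right of 0 and none left of it, mitochondrial proteases mostly to the left with 12, and far fewer points are filled after NONO knockdown.

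As a description of likeness, Pearson's r of log2 CPM was taken over the 24 libraries for 14400 tested genes with a symbol. The libraries share the split between siSFPQ and all others, which sets most of these values. LRRN3 was most like SPRY4 (r = 0.993), MROCKI (0.992), FREM1 (0.991), MACF1 (0.991) and DUSP6 (0.991). SPRY4 stood at 19.9 CPM in siCtrl and 83.7 and 143 CPM with siSFPQ-2 and siSFPQ-3, and FREM1 at 1.95, 47.6 and 114 CPM, with siSFPQ-3 above siSFPQ-2 as for LRRN3. LPAR6 was most like ITGAV (0.987), CTTNBP2NL, DKK4, ZNF706 and KLF6 (0.985 each). ITGAV, an integrin subunit, stood at 231 CPM in siCtrl and at 1300 and 1610 CPM with the reagents.

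The hosts were like other genes. IMMP2L was most like OLMALINC (0.908), GNG4 (0.898), STAU1 (0.895), CZIB (0.888) and JMJD8 (0.886). Its r with LRRN3 was -0.764. RB1 was most like MFN1 (0.893), DNAJC13 (0.850), KPNA1 (0.847), ABRAXAS2 (0.818) and SEC23IP (0.816), of which the first 3 are on chromosome 3 and the other two on chromosome 10. Its r with LPAR6 was -0.047.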

How the data were processed

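For each of 24 libraries (8 groups of 3) the authors deposited raw counts of reads over the exons of 60605 Ensembl genes, with exon coordinates. Per the submitters' processing notes, cutadapt 4.2, STAR 2.7.5a, featureCounts (Subread 2.0.3) and DESeq2 1.38.1 were used with build hg38. How multi-mapping reads and strand were set, and from which annotation release, is not given in the sources used. Total counts ran from 4243196 to 14886353 per library. No molecular identifiers are mentioned, so 95% counting intervals and the floor of 3 counts cover counting error only.

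From these counts, the quasi-likelihood test of edgeR 4.0.16 (R 4.3.3; TMM factors, filterByExpr by group, robust) was fitted over all 24 libraries, with Benjamini-Hochberg adjustment over 15869 genes. The reagents of a target were averaged and set against their own arm's control, and genes were called at an adjusted p under 0.05. Alternatives were RLE and upper quartile scaling, no filter, only the groups compared, DESeq2 1.42.0, the replicate block, leaving out each library and, chosen after seeing the data, ASO-Ctrl as reference. Ratios per kb of exon had 0.5 reads added and used exact permutation tests. The fit was tested on simulated counts.

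The members and lists were chosen with earlier results of these data known. Up to 3 risen and 3 fallen genes per list were named, with the nearest neighbours, genes inside the hosts, the 5 genes most like each member and the nested genes that met the expression rule; a few others (LPAR2, IMMP1L, RBL1, RBL2, FNDC3A) were named for their role or place after their values were seen, and some genes the rule covers are not reported here. Gene names matched 60463 genes. Deviations of same-numbered libraries from their group means correlated at over 0.1 in all 9 pairs for NONO (0.114 to 0.329) and all 9 for NEAT1. The same held for all 3 between the siNONO reagents and all 3 between the controls, so the numbers were taken to pair those libraries. For SFPQ 5 of 9 pairs did so. The main fit and the permutation tests did not use this pairing. Only the replicate block did, and it called 4262 genes after NONO knockdown against 2767.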

Additional observations from a re-analysis of the deposited data

Results flagged for a closer look

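LRRN3 differed between the reagents against SFPQ: its log2 level was 1.71 higher with siSFPQ-3 than with siSFPQ-2 (edgeR adjusted p = 0.00285), and all 3 siSFPQ-3 libraries lay above all 3 siSFPQ-2 libraries. The difference ran from 1.32 to 2.07 when each library was left out in turn.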

How the results depend on the processing

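The LRRN3 difference between the SFPQ reagents kept its direction and call under every alternative run, and so did the lower IMMP2L after NONO knockdown except against another control. Against ASO-Ctrl in place of siCtrl, IMMP2L after NONO knockdown was -0.39 (edgeR adjusted p = 0.0743); the other values against ASO-Ctrl were -0.93 for IMMP2L, 9.47 for LRRN3, 7.39 for LPAR6 and 0.058 for RB1 after SFPQ knockdown, and 0.24 for RB1 after NONO knockdown (called). RB1 after NONO knockdown was also called with the replicate block (0.17, edgeR adjusted p = 0.0433). Leaving out 1 library at a time, the fitted change after SFPQ knockdown ran from 8.01 to 11.20 for LRRN3 and from 7.34 to 10.35 for LPAR6, with siCtrl replicate 2 holding all control reads of LRRN3 and replicate 3 those of LPAR6, and from -0.072 to 0.042 for RB1. The IMMP2L difference between the SFPQ reagents ran from -0.036 to 0.092, RB1 in the ASO-NEAT1 libraries from -0.108 to 0.001 (the latter without ASO-NEAT1-1047 replicate 3), and the LRRN3 to IMMP2L ratio after NONO knockdown from -0.079 to 1.318. Upper quartile factors turned the IMMP2L difference between the SFPQ reagents to -0.016, and RLE factors and DESeq2 turned RB1 after SFPQ knockdown to 0.023; these values near 0 have no direction. The cause was not tested.

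Counts of called list members after NONO knockdown rose with the replicate block, to 4 for LPA and related receptors, 5 for LPA enzymes, 6 for leucine-rich repeat proteins, 10 for the RB1 pathway and 7 for mitochondrial proteases. With only the groups compared in the fit they were 1 for LPA and related receptors and 10 for the RB1 pathway. Without a filter on low counts they were 5 for leucine-rich repeat proteins and 2 for mitochondrial proteases, and 9 LPA and related receptors were called after SFPQ knockdown. The replicate block changed no other call of a member. Over all genes it called 4262 after NONO knockdown against 2767. LRRN3 and LPAR6 had few or no reads outside SFPQ knockdown, and changes of a few reads were not detectable there.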
